A study of Rattus norvegicus with 10 samples.

Results

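Macrophages of skeletal muscle were followed through 10 genes that mark them: Csf1r, Adgre1, Fcgr1a, Mrc1, Cd163, Msr1, Cd68, Lyz2, C1qa and C1qb. They were taken by gene name from the deposited table of 32883 features, where each of these names stood on a single feature, so they are 10 of 32883. All 10 had counts in all 10 libraries, and all 10 passed the filter on low counts in the main fits, with and without MPS 14. The strict filter used as an alternative left out Msr1, and without MPS 14 also Fcgr1a.

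Muscle of Sprague Dawley rats was profiled by mRNA sequencing, with 4 libraries labelled NC (NC 4, 5, 6 and 7), 3 labelled MPS (MPS 10, 11 and 14) and 3 labelled TZG (TZG 26, 27 and 43). MPS is myofascial pain syndrome, in which taut, painful spots form in skeletal muscle; the titles of the TZG samples call them drug samples, and the series deals with an extract named Tianhe zhuifeng liquid. What NC and TZG stand for is not spelled out, and neither the muscle, the age, the dose, the time, the way the syndrome was brought about nor whether TZG rats carried it is given. Whether the samples come from separate animals is not stated, so the p-values speak only to the spread among these libraries, and that spread may be technical.

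Macrophages sit between the fibres of healthy muscle, engulf dead fibres and debris after damage, and release factors that steer repair. Their survival depends on the growth factors CSF-1 and IL-34, which both act through the receptor encoded by Csf1r, and their gene programme depends on PU.1, the transcription factor encoded by Spi1. Resident muscle macrophages are known for the mannose receptor Mrc1 and the haemoglobin scavenger receptor Cd163, whereas lysozyme and Fc receptors are shared with monocytes and other phagocytes.

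The promoter windows of 4 of the genes are printed because of the values that follow. C1qa and C1qb encode chains of the same protein yet had different proportions in the NC libraries and in 5 of the others, and Lyz2 and Cd163 were the genes highest and lowest in MPS 14 relative to the other libraries. RefSeq windows of the GRCr8 assembly, running from 250 bases before to 50 bases after the gene's start, were at hand for 8 of the 10 genes, Fcgr1a and Msr1 being without one. Capitals mark GAGGAA, or TTCCTC where the motif lies on the other strand, a core of the sequences that PU.1 binds. The windows are C1qa, chr5:154419884-154420183; C1qb, chr5:154407778-154408077; Lyz2, chr7:54797962-54798261; and Cd163, chr4:158770524-158770823. Cd163 lies on the plus strand, the other 3 on the minus strand, and each is written 5′ to 3′ along its gene.
C1qa: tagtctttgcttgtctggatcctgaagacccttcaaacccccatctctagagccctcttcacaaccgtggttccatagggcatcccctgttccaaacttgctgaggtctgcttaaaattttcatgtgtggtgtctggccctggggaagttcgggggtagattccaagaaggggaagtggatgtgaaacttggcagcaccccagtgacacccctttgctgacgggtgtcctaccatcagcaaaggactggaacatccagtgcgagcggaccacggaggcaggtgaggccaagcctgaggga
C1qb: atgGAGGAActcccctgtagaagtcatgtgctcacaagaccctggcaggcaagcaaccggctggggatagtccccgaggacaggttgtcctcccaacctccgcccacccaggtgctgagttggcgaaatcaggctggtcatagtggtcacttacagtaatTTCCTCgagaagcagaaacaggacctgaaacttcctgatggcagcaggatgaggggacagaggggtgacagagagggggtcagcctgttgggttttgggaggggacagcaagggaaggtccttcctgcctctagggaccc
Lyz2: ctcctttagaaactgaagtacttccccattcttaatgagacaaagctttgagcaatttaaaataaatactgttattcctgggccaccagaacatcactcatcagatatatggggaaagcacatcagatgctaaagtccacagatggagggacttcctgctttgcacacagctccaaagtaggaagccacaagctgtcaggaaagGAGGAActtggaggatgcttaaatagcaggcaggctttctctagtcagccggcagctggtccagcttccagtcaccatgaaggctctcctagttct
Cd163: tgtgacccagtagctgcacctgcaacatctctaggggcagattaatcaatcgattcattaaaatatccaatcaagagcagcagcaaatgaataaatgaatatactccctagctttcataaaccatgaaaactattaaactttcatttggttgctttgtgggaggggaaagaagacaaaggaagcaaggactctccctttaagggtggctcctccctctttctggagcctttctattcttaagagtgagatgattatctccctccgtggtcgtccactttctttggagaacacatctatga

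The motif stood in 6 of the 8 windows, those of Lyz2, Cd68, Mrc1, Csf1r, Adgre1 and C1qb, and its letters were not in the windows of C1qa and Cd163. C1qb, Cd68, Mrc1 and Csf1r held it at 2 places each. Of all 33469 RefSeq windows of the same length, 9239 or 27.6% held the motif on either strand. A match describes letters in the window and is not a measured binding site. Spi1 itself stood at 2.42 to 12.4 counts-per-million (CPM, of all counts of a library) in the libraries other than MPS 14, and at 49.9 CPM in MPS 14.

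Library totals ran from 12616160 to 18179144 counts, and transcripts of the mitochondrial genome took 18.7% to 38.6% of them in 9 libraries, with TZG 43 at the top, and 9.71% in MPS 14. MPS 14 stood apart. Its 7 fast muscle fibre genes summed to 6708 CPM, against 111180 to 176743 CPM in the other 9, and its 8 T cell genes summed to 1379 CPM against at most 24.6. Its 5 B cell genes summed to 1580 CPM against at most 1.77, and its 5 genes of lymph node stroma to 3881 CPM against at most 8.66. Each comparison is therefore given with MPS 14 and without it. Also apart were MPS 10, MPS 11 and TZG 27, in which 6 genes of slow muscle fibres summed to 1305, 2473 and 3024 CPM, against 93.0 to 169 CPM in the 6 remaining libraries and 338 in MPS 14.

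Per gene length, Lyz2 was the most abundant of the 10 genes in each of the 10 libraries, with a median of 76.3 FPKM (fragments per kilobase of gene, scaled to library size by the authors). C1qa and C1qb followed at medians of 26.6 and 23.4 FPKM, and their ranges over the libraries overlapped. Csf1r (6.91), Cd68 (5.98), Mrc1 (4.70) and Fcgr1a (3.17) formed a middle tier in median FPKM, also with overlapping ranges. Adgre1 (2.05) and Cd163 (1.44) stood lower in median FPKM, and Msr1, at 0.135, was the lowest of the 10 in every library except MPS 14, where Cd163 was below it.

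**Figure D1:**
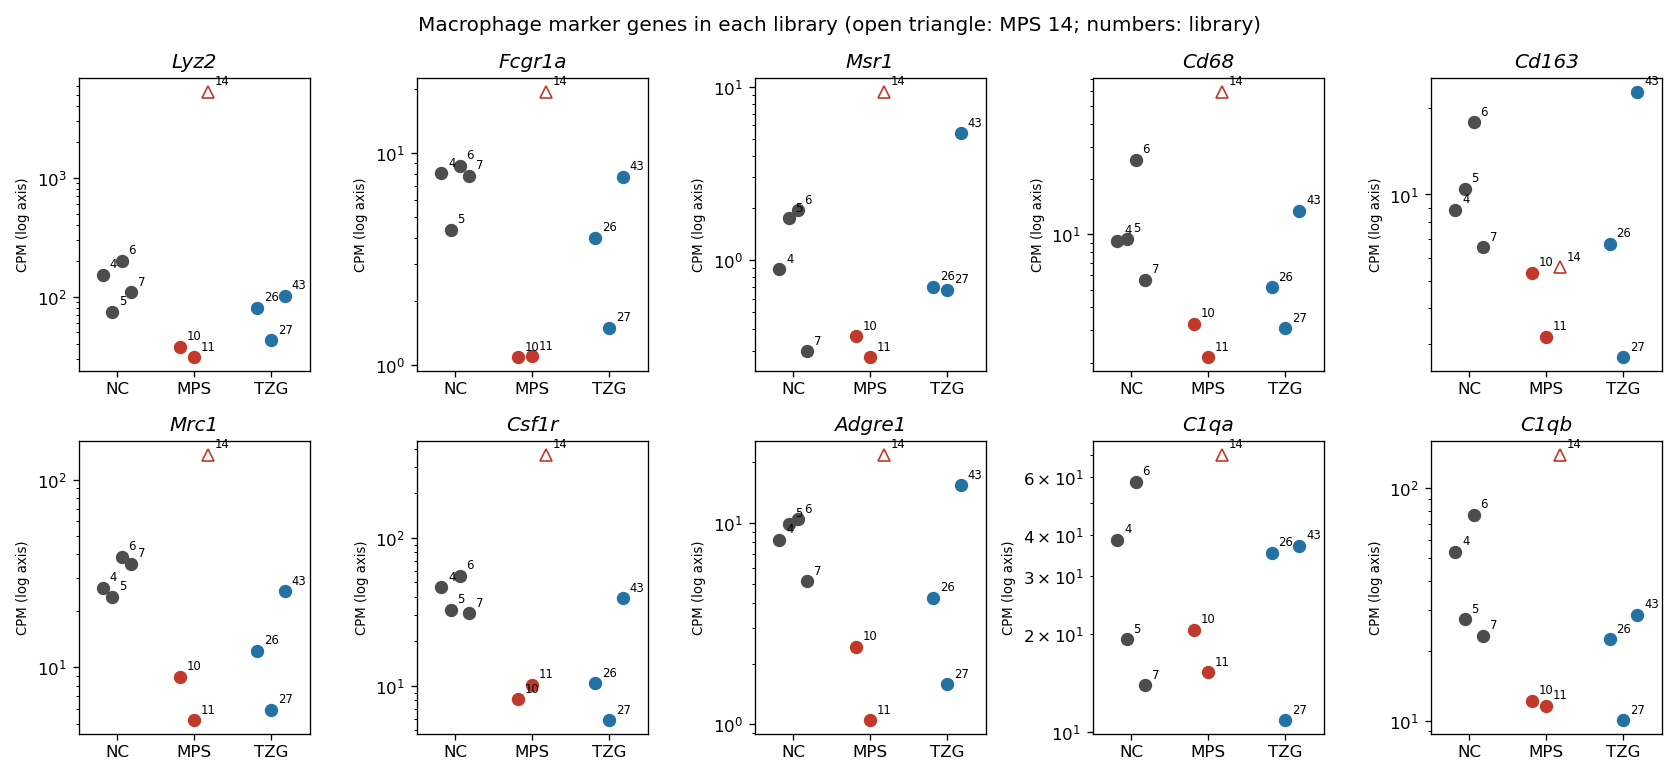
Each panel plots 1 macrophage marker gene, with CPM on a log axis against the group; points are libraries, numbered by title, and the open triangle is MPS 14. MPS 14 is the highest point in 9 panels and lies among the others for Cd163, and MPS 10 and MPS 11 lie below all 4 NC libraries in 8 panels.

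Csf1r, the receptor for CSF-1 and IL-34, stood at 46.4, 32.6, 55.3 and 30.8 CPM in NC 4, 5, 6 and 7, at 8.12, 10.2 and 364 in MPS 10, 11 and 14, and at 10.4, 5.85 and 39.0 in TZG 26, 27 and 43. In CPM, MPS 10 and 11 lay below all NC libraries, as did TZG 26 and 27, while TZG 43 lay inside the NC range. CPM leave out the TMM factors by which the fits scale libraries. Without MPS 14 these were 0.734 for TZG 43 and 1.06 to 1.29 for NC, and with them TZG 43 lay above every NC library. Without MPS 14 the log2 fold change of MPS against NC was -1.88 ± 0.70 (SE; edgeR adjusted p = 0.168), from 41.3 ± 11.7 CPM (SD, n = 4) in NC to 9.15 ± 1.45 (n = 2). Adgre1, the adhesion receptor known as F4/80 in mouse, stood at 8.25, 9.91, 10.4 and 5.13 CPM in NC 4, 5, 6 and 7, at 2.42, 1.05 and 21.8 in MPS 10, 11 and 14, and at 4.26, 1.58 and 15.4 in TZG 26, 27 and 43. The lowest libraries were MPS 11, TZG 27 and MPS 10, and TZG 43 was above every NC library. Its log2 fold change, MPS against NC without MPS 14, was -2.02 ± 0.84 (edgeR adjusted p = 0.207).

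Fcgr1a encodes the high-affinity Fc receptor for IgG, through which macrophages take up antibody-coated particles. It stood at 8.03, 4.36, 8.71 and 7.80 CPM in NC 4, 5, 6 and 7, at 1.09, 1.10 and 19.5 in MPS 10, 11 and 14, and at 4.003, 1.501 and 7.74 in TZG 26, 27 and 43. All TZG libraries were above MPS 10 and 11, also after TMM scaling. In CPM, 2 of the 3 were below the lowest NC library. For TZG 26 this did not hold after scaling, where its TMM factor was 0.885 and that of NC 5 was 1.06. Without MPS 14, Fcgr1a had the most negative log2 fold change of the 10 in MPS against NC, -2.43 ± 0.65 (SE; edgeR adjusted p = 0.0749).

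The 3 scavenging receptors were all lower in MPS than in NC without MPS 14, and were not tested against each other. Mrc1, the mannose receptor, stood at 26.6, 23.8, 38.7 and 35.7 CPM in NC 4, 5, 6 and 7, at 8.91, 5.23 and 136 in MPS 10, 11 and 14, and at 12.3, 5.93 and 25.4 in TZG 26, 27 and 43. MPS 10, MPS 11, TZG 26 and TZG 27 were below every NC library, and the log2 fold change of MPS against NC without MPS 14 was -1.87 ± 0.56 (SE; edgeR adjusted p = 0.101). Cd163, which takes up haemoglobin bound to haptoglobin, stood at 8.84, 10.5, 17.9 and 6.54 CPM in NC 4, 5, 6 and 7, at 5.33, 3.19 and 5.57 in MPS 10, 11 and 14, and at 6.73, 2.70 and 22.9 in TZG 26, 27 and 43. In CPM it was the only one of the 10 for which MPS 14 did not lead, and all 3 MPS libraries were below all 4 NC libraries. With the TMM factors of all 10 libraries, 1.74 for MPS 14 and 0.696 for TZG 43, TZG 43 was also above MPS 14 for Msr1, Adgre1 and C1qa. Without MPS 14 the log2 fold change of Cd163 in MPS against NC was -1.07 ± 0.75 (SE; edgeR adjusted p = 0.450). Msr1, the class A scavenger receptor for modified lipoproteins, had few reads, with 12, 22, 26 and 4 counts in NC 4, 5, 6 and 7, 6, 5 and 128 in MPS 10, 11 and 14, and 11, 9 and 76 in TZG 26, 27 and 43. In CPM, NC 7 at 0.297 lay between MPS 10 at 0.364 and MPS 11 at 0.275, so these groups overlapped. Without MPS 14 the log2 fold change was -1.62 ± 1.12 (edgeR adjusted p = 0.441).

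Of the 2 lysosomal markers, Cd68, a glycoprotein of the lysosome membrane, stood at 9.20, 9.43, 25.3 and 5.65 CPM in NC 4, 5, 6 and 7, at 3.27, 2.15 and 59.6 in MPS 10, 11 and 14, and at 5.15, 3.08 and 13.4 in TZG 26, 27 and 43. In CPM, MPS 10, MPS 11, TZG 26 and TZG 27 were below every NC library. For TZG 26 this did not hold after scaling, where its TMM factor was 0.885 and that of NC 7 was 1.13. The log2 fold change of Cd68, MPS against NC without MPS 14, was -1.88 ± 0.72 (SE; edgeR adjusted p = 0.176). Lyz2, lysozyme, which breaks bacterial cell walls, stood at 153, 74.7, 199.9 and 108 CPM in NC 4, 5, 6 and 7, at 37.8, 30.8 and 5323 in MPS 10, 11 and 14, and at 80.1, 42.8 and 102 in TZG 26, 27 and 43. The 3 groups without MPS 14 fell into an order in which MPS was lowest and did not overlap with either NC or TZG, while TZG and NC overlapped. The log2 fold change of Lyz2 without MPS 14 was -1.67 ± 0.45 in MPS against NC (edgeR adjusted p = 0.0743). How reads shared between lysozyme gene copies were counted is not given in the sources used here.

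C1qa and C1qb encode the A and B chains of C1q, the recognition protein that starts the classical complement pathway and is made largely by tissue macrophages. C1qa stood at 38.6, 19.2, 57.9 and 13.9 CPM in NC 4, 5, 6 and 7, at 20.5, 15.2 and 70.2 in MPS 10, 11 and 14, and at 35.2, 10.9 and 37.0 in TZG 26, 27 and 43. Its groups overlapped, since NC 7 was below both MPS 10 and MPS 11, and its log2 fold change without MPS 14 was the smallest of the 10 in MPS against NC, -0.55 ± 0.58 (SE; edgeR adjusted p = 0.630). C1qb stood at 53.1, 27.3, 76.9 and 23.3 CPM in NC 4, 5, 6 and 7, at 12.2, 11.6 and 139 in MPS 10, 11 and 14, and at 22.4, 10.1 and 28.5 in TZG 26, 27 and 43. Here MPS 10 and 11 were below all NC libraries, with a log2 fold change of -1.62 ± 0.54 (edgeR adjusted p = 0.133).

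The first comparison set the MPS libraries against the NC libraries. With all 10 libraries in the fit, none of the 10 genes passed an edgeR adjusted p of 0.05, and neither did any other gene: 0 of 13535 genes tested were called, which is 0%, although 1 of the 10 markers had an unadjusted p under 0.05, against 11% of all genes (1483), and DESeq2 called 205 genes (1.58%), none of them a marker. Lyz2 was that marker, with a log2 fold change of 3.10 ± 1.27 (SE; edgeR adjusted p = 0.435). Of the 10, 5 were higher and 5 lower, with a median log2 fold change of -0.0034 against 0.13 over all genes tested; on library totals without scaling factors, 3 were lower and the medians were 0.47 and 0.22. Cd163 alone had all MPS libraries below all NC libraries (log2 fold change -1.24 ± 0.69, edgeR adjusted p = 0.530), in a comparison in which 5.96% of all genes had no overlap in that direction. The authors' deposited table gives Lyz2 a log2 fold change of 3.05 in this comparison, with p = 0.0035 and q = 0.125, and gives Cd163 -1.25, with p = 0.0401 and q = 0.497; it marks Lyz2 as up and Cd163 as down.

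Without MPS 14, all 10 genes were lower in MPS than in NC, from -0.55 for C1qa to -2.43 for Fcgr1a, with a median log2 fold change of -1.77 against -0.023 over all genes. None was called, against 2.38% of all genes (326 of 13719; edgeR adjusted p under 0.05), and 7 of the 10 had an unadjusted p under 0.05, against 20.8% of all genes. In 8 of the 10, all but Msr1 and C1qa, MPS 10 and 11 were below all 4 NC libraries in CPM. Over all genes that was so in CPM for 31.6%. On CPM rescaled by TMM factors the same 8 markers had no overlap, but the share of all genes on that scale was not counted. DESeq2 called 6 markers, Lyz2, Fcgr1a, Cd68, Mrc1, Csf1r and C1qb, in a test that called 8.38% of all genes (1100). An edgeR fit of these groups alone also called 6, with Adgre1 in place of Cd68, and called 8.81% of all genes (1181). The adjusted p of Lyz2 was 0.0028 by DESeq2 and 0.012 in that edgeR fit, and over all alternatives it ran up to 0.399. The count of 326 genes itself dropped to 85, 2, 41 and 29 without NC 4, 5, 6 and 7, and to 1 and 3 without MPS 10 and MPS 11. In bulk muscle, fewer macrophages and less of these RNAs in each macrophage cannot be told apart.

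**Figure D2:**
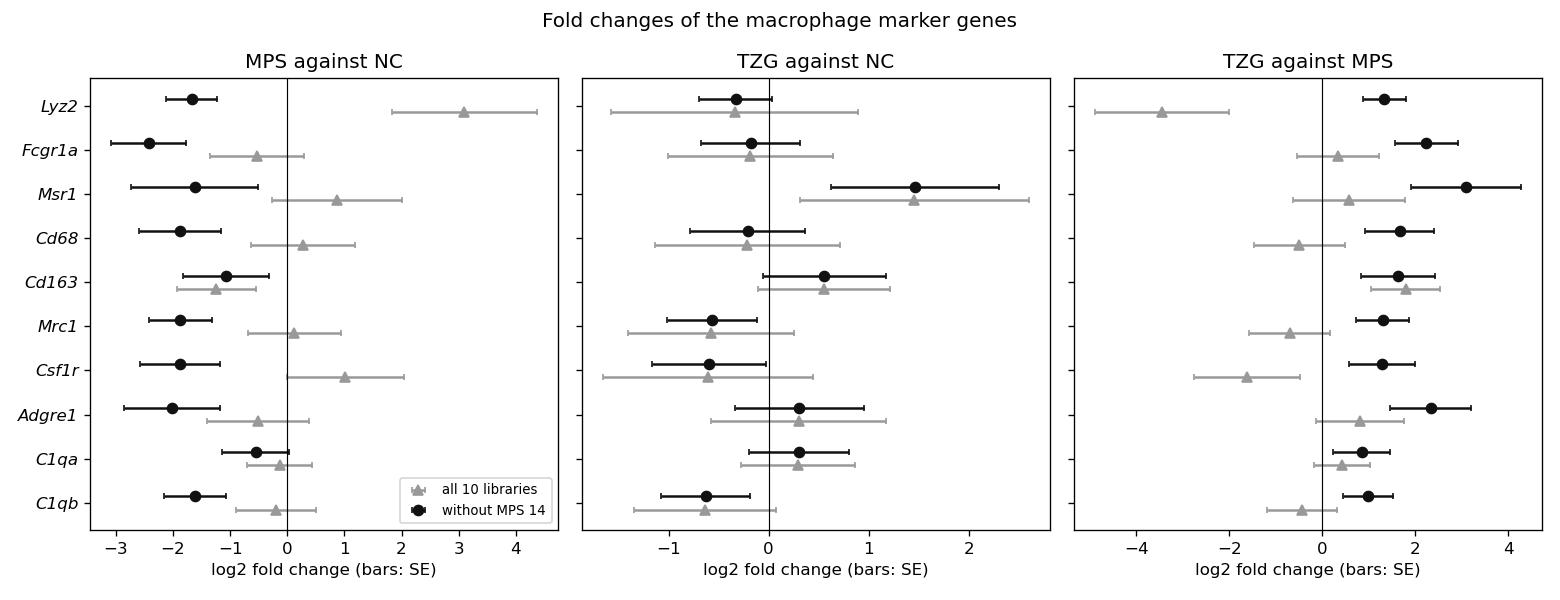
Log2 fold changes of the 10 macrophage marker genes with their standard errors in the 3 comparisons; grey triangles are fits with all 10 libraries and black circles are fits without MPS 14. Without MPS 14 all 10 genes lie left of 0 in MPS against NC and right of 0 in TZG against MPS.

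The same genes were low in a TZG library too. In 8 of the 10 genes, all but Msr1 and C1qa, the 3 lowest of the 9 libraries other than MPS 14 were MPS 10, MPS 11 and TZG 27, both in CPM and after TMM scaling. The share of all genes with that order was not counted, so the 8 cannot be called particular to the markers. MPS 10 and 11 alone were below all NC libraries in CPM for 31.6% of all genes. Summed over the 10 genes, MPS 10, MPS 11 and TZG 27 held 100.01, 80.8 and 85.0 CPM, whereas NC 4, 5, 6 and 7 held 353, 213, 493 and 238 and TZG 26 and 43 held 181 and 296. After TMM scaling the sums were 101, 88.4 and 87.3 in MPS 10, MPS 11 and TZG 27 and 201 to 381 in NC. TZG 26 then lay inside the NC range at 205, and TZG 43 was the highest at 404. MPS 10, MPS 11 and TZG 27 are the same libraries in which the slow muscle fibre genes were high. Of the slow fibre genes tested, 6 of 6 were higher in MPS 10 and 11 than in NC and 3 passed, among them Myh7, the slow myosin heavy chain (log2 fold change 10.03 ± 2.11; edgeR adjusted p = 0.0361). The part of fibre type in the macrophage values was not tested.

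**Figure D3:**
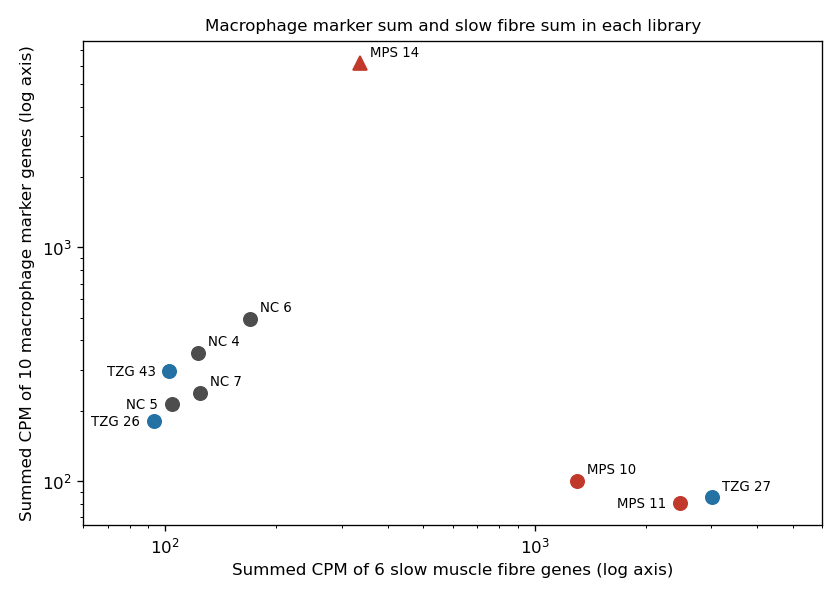
Each point is a library, with the summed CPM of 6 slow muscle fibre genes on the horizontal log axis and that of the 10 macrophage marker genes on the vertical log axis; the triangle is MPS 14. MPS 10, MPS 11 and TZG 27 lie at the lower right, with slow fibre sums of 1305 to 3024 CPM and marker sums of 80.8 to 100.01 CPM.

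TZG against NC asks how muscle of the drug-labelled samples differs from muscle labelled NC. Values for the 10 genes spread around those of NC. Without MPS 14, 4 were higher and 6 lower, with a median log2 fold change of -0.20 against 0.030 over all genes. None was called, as against 0.051% of all genes (7 of 13719), none had an unadjusted p under 0.05, against 19% of all genes, and none had TZG and NC libraries that did not overlap in CPM, against 25.5% of all genes in either direction. DESeq2 called 8.18% of all genes and none of the markers. Csf1r (-0.60 ± 0.57; edgeR adjusted p = 0.611), C1qb (-0.63 ± 0.44; adjusted p = 0.470) and Mrc1 (-0.57 ± 0.45; adjusted p = 0.528) stood lowest. Msr1 stood highest at 1.47 ± 0.84 (edgeR adjusted p = 0.369), and Cd163 was at 0.56 ± 0.62. Lyz2 (-0.33), Fcgr1a (-0.18), Cd68 (-0.21), C1qa (0.30) and Adgre1 (0.31) lay between. With all 10 libraries in the fit, 0% of genes were called, 5.63% had an unadjusted p under 0.05, and DESeq2 called 55 (0.462%), none of them a marker; 1 of the 10, Msr1, had a log2 fold change above 1 in size, 1.46 ± 1.15 (edgeR adjusted p = 0.898).

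TZG 43 set the upper end of the TZG range for every one of the 10 genes, and TZG 27 its lower end. In CPM, of the 9 libraries other than MPS 14, TZG 43 was the highest for Msr1, Cd163 and Adgre1, and NC 6 was the highest for the other 7. That split leaves out the TMM factors, which were 0.734 for TZG 43 and 1.29 for NC 6. With them, TZG 43 was also the highest for Fcgr1a, Mrc1, Csf1r and C1qa, and NC 6 only for Lyz2, Cd68 and C1qb. The 10 genes then summed highest in TZG 43, at 404 against 381 in NC 6. Without TZG 43, Csf1r passed in TZG against NC (log2 fold change -1.99, edgeR adjusted p = 0.0345), 1 of 239 genes or 1.76% that passed, where 7 passed with it. TZG 43 also had the highest summed level of genes of fibro-adipogenic progenitors, which lay down muscle matrix, at 3961 CPM against 679 to 2627 in the other 8. That sum was mostly 2 collagen genes, Col1a1 and Col3a1, with 26760 and 19455 counts. Those genes and Dpt were highest in TZG 43 in CPM, but Pdgfra, Dcn, Lum and Mfap5 were not. Pdgfra had 203 counts there and 276 to 410 in NC. TZG 43 had the least of endothelial genes, at 121 CPM against 412 to 942, and the largest mitochondrial share. The part of these genes and of the mitochondrial share in its macrophage values was not tested. Scaling mattered here: on library totals without TMM factors, 9 of the 10 genes were lower in TZG than in NC, with a median of -0.75, while the median of all genes moved from 0.030 to -0.39.

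TZG against MPS asks whether the drug-labelled samples differ from those labelled MPS, and it shares the MPS libraries with the first comparison. Without MPS 14, all 10 genes were higher in TZG, with a median log2 fold change of 1.48 against 0.021 over all genes, and the size ran from 0.85 for C1qa to 3.09 for Msr1. None was called, against 0.00729% of all genes, which is 1 of 13719; 6 of the 10 had an unadjusted p under 0.05, against 4.44% of all genes, DESeq2 called 0.103% of genes and no marker, and all 10 had an edgeR adjusted p of 0.970. In 3 of the 10 genes every TZG library was above MPS 10 and 11 in CPM, against 4.35% of all genes: Lyz2 (1.34 ± 0.46 SE), Fcgr1a (2.24 ± 0.67) and Msr1 (3.09 ± 1.18). In the other 7 the groups overlapped, with TZG 27 below MPS 10. Without TZG 43 the value for Csf1r turned to -0.13.

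With all 10 libraries, the TZG against MPS fit called 0% of genes, with Lyz2 at -3.44 ± 1.44 and Cd163 at 1.79 ± 0.74 (edgeR adjusted p = 0.771 for both). An unadjusted p under 0.05 held for 2 of the 10, Lyz2 and Cd163, and for 5.33% of all genes, and DESeq2 called 3 genes (0.0232%), none of them a marker. The authors' deposited table gives Lyz2 -3.42, with p = 0.00846 and q = 0.588, and Cd163 1.78, with p = 0.0452 and q = 1. It marks Lyz2 as down and Cd163 as up. For Lyz2 the direction rests on MPS 14, since the value without it was 1.34.

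The pattern of the markers inside MPS 14 was uneven. Relative to the median of the other 9 libraries, Lyz2 was 66.5 times as high in CPM, Msr1 13.4 times, Csf1r 11.8 times and Cd68 10.5 times. C1qb (5.99 times), Mrc1 (5.71), Fcgr1a (4.47), Adgre1 (4.26) and C1qa (3.42) were raised less, and Cd163 was at 0.827 times that median. CPM leave out the TMM factors of the fit with all libraries, 1.74 for MPS 14 and 0.696 to 1.22 for the others. With them each of these multiples would be smaller. Lyz2 made up 86.6% of the summed CPM of the 10 genes in MPS 14 and 34.3% to 50.3% in the other libraries, so the sum of 6148 CPM there was mostly lysozyme. Without Lyz2 the sum was 825 CPM in MPS 14, against 42.3 to 293 CPM elsewhere.

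Most other receptors of phagocytes were also high in MPS 14: of the 20 listed genes in the table, 16 were above all 9 other libraries in CPM, 3 within their range and 1 below it. Siglec1, the sialic acid receptor CD169, stood at 215 CPM there and at no more than 8.71 CPM in the other libraries. Marco, a scavenger receptor, stood at 56.4 CPM there and had 0 counts in the other 9, and Lyve1, a hyaluronan receptor, stood at 124 CPM against 5.78 to 29.05. Mertk, a receptor for dying cells, stood at 23.2 CPM against 2.27 to 9.59, and Axl at 151 against 7.48 to 85.7. The 4 genes not above the rest were Trem2 (1.03 CPM against 0.935 to 6.48), Clec10a (14.4 against 5.55 to 27.4), Folr2 (16.3 against 3.08 to 30.1) and Stab1 (14.1 against 14.9 to 34.6). The examples were chosen from the phagocyte list after their values were seen. The dendritic cell gene Xcr1 stood at 72.2 CPM in MPS 14 against at most 0.372 elsewhere, and the mast cell gene Cpa3 at 58.0 against at most 4.01. The part of these cell types in the marker values of MPS 14 was not tested.

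**Figure D4:**
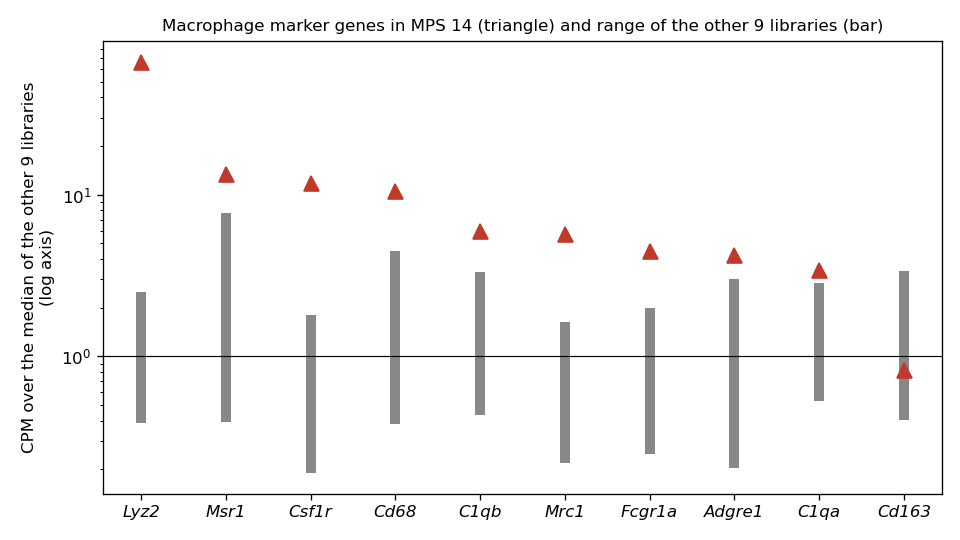
For each macrophage marker gene, the red triangle gives the CPM in MPS 14 and the grey bar the range of the other 9 libraries, both over the median of those 9, on a log axis. The triangle stands at 66.5 for Lyz2 and at 0.827 for Cd163, the only gene whose triangle is inside the bar.

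The C1q pair also differed in its proportions between libraries. Of the counts of C1qa and C1qb together, C1qa took 42.1% in NC 4 (95% exact binomial interval 39.3% to 44.9%), 41.2% in NC 5 (37.2% to 45.3%), 42.9% in NC 6 (40.6% to 45.2%) and 37.4% in NC 7 (33.1% to 41.8%). It took 62.7% in MPS 10 (58.5% to 66.8%) and 56.8% in MPS 11 (52.2% to 61.2%), but 33.5% in MPS 14 (31.8% to 35.3%). In TZG 26, 27 and 43 it took 61.1% (57.8% to 64.3%), 52.0% (45.9% to 58.0%) and 56.5% (53.2% to 59.7%). The A chain was thus the minor one in the NC libraries and in MPS 14, and the larger in MPS 10, MPS 11 and the TZG libraries, where for TZG 27 the interval includes equal shares. Intervals cover counting error only.

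Set against C1qc, which encodes the third chain, C1qa again lay apart between these libraries and C1qb overlapped. The ratio of C1qa to C1qc CPM was 0.327 to 0.540 in NC, 1.16 and 0.827 in MPS 10 and 11, and 0.963, 0.599 and 0.743 in TZG 26, 27 and 43, whereas the ratio of C1qc to C1qb overlapped, at 1.39 to 1.83 in NC and 1.45 to 1.81 in those 5. Among the 45 pairs that the 10 genes form, the C1qa and C1qb pair was the only one whose ratio set NC apart from all 5 of those libraries. It was singled out after the ratios were seen, so no test is given. Both genes lie on chromosome 5 in the deposited table, C1qa at 155261250 to 155264143 and C1qb at 155246447 to 155252003, on a build not given in the sources used here, and no other feature of the table overlaps either.

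**Figure D5:**
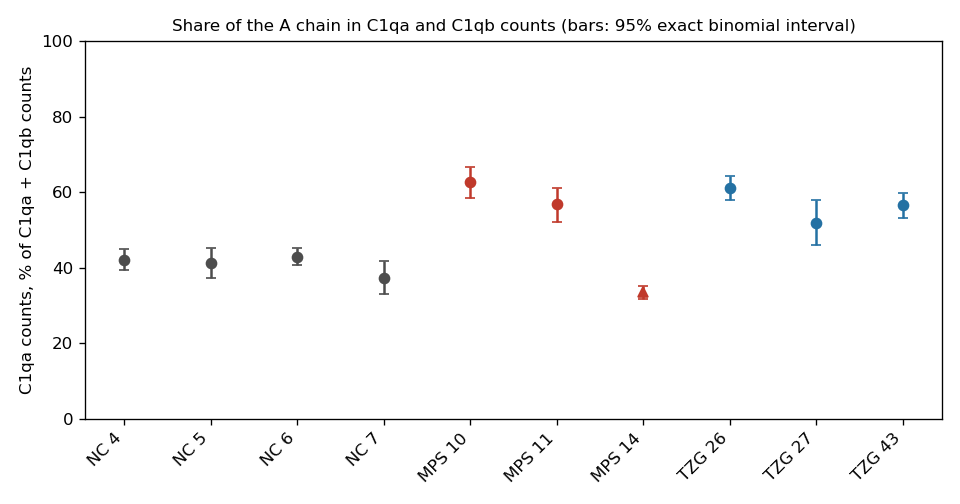
Counts of C1qa as a percentage of the counts of C1qa and C1qb in each library, with 95% exact binomial intervals; grey is NC, red is MPS with a triangle for MPS 14, and blue is TZG. NC libraries lie between 37.4% and 42.9%, and MPS 10, MPS 11 and the 3 TZG libraries between 52.0% and 62.7%.

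Beyond the markers, lists of related genes were followed in the comparison of MPS with NC. With all libraries no gene of these lists passed and their directions were mixed: 11 of 17 phagocyte receptor genes were higher (median log2 fold change 0.50), as were 12 of 17 lysosome genes (0.25), 8 of 16 complement genes (0.0039), 5 of 11 genes of the CSF-1 axis (-0.36) and 7 of 10 haem and iron genes (0.58), against a median of 0.13 over all genes. The values that follow are without MPS 14. All 17 phagocyte receptor genes tested were lower, with a median log2 fold change of -1.27 against -0.023 over all genes, and 1 passed: Axl, a receptor for the uptake of dying cells, fell by 1.79 in log2 with an SE of 0.39 (edgeR adjusted p = 0.041), from 37.2 to 85.7 CPM in NC to 18.7 and 7.48. Siglec1 (-2.24), Tlr4, the endotoxin receptor (-1.53), and Folr2, a folate receptor (-2.09), did not pass. Tyrobp and Fcer1g, the adaptor chains through which many of these receptors signal, were at -1.71 ± 0.69 and -2.11 ± 0.72 (edgeR adjusted p = 0.192 and 0.138).

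Of 16 complement genes tested, 14 were lower, with a median of -1.15, and 1 passed. C5ar1, the receptor for the attractant C5a, fell by 2.16 ± 0.38 (SE; edgeR adjusted p = 0.0214), from 6.41, 6.02, 11.1 and 5.80 CPM in NC 4, 5, 6 and 7 to 1.21 and 1.43 in MPS 10 and 11. It stood at 3.05, 3.23 and 3.97 CPM in TZG 26, 27 and 43, between the other groups with no overlap in CPM. Over all genes, TZG and NC had no overlap in CPM for 25.5%, and TZG was above MPS 10 and 11 for 4.35%. The order against NC did not hold after TMM scaling, which put TZG 43 (factor 0.734) above NC 7 (factor 1.13). C1qc was at -1.66 ± 0.48 (adjusted p = 0.0921), and the protease C1r (-1.17) and the C1 inhibitor Serping1 (-1.36) did not pass either.

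None of the 11 genes tested for the CSF-1 axis and myeloid transcription factors passed, and 9 were lower (median -0.65). The ligands Csf1 and Il34 were at -0.74 ± 0.31 and -0.91 ± 0.31 (edgeR adjusted p = 0.215 and 0.134), and Spi1 was at -0.75 ± 0.61 (adjusted p = 0.524). Of 17 lysosome and phagosome genes, 12 were lower and none passed (median -0.37), with Cybb, the oxidase subunit of phagocytes, at -1.98 and Ctss, the antigen-processing cathepsin S, at -1.46. Haem and iron genes had no common direction: 7 of 10 were higher, none passed, and the median was 0.16. Hmox1, which breaks down haem, was at 0.01. Ptprc, the CD45 phosphatase of all leukocytes, was at -1.44 ± 0.76 (adjusted p = 0.310) and had 3.96 to 9.28 CPM in NC against 3.09 and 1.43 in MPS 10 and 11.

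Genes of other cells, also without MPS 14, went in both directions. Fibro-adipogenic progenitor genes were lower in 6 of 7 (median -1.13), and Pdgfra, their defining receptor, fell by 1.32 ± 0.27 (SE; edgeR adjusted p = 0.0361). T cell genes were lower in 5 of 5 tested (median -0.96), endothelial genes in 6 of 6 (-0.37), neutrophil genes in 3 of 3 (-0.54), dendritic cell genes in 3 of 4 (-0.056) and pan-leukocyte genes in 3 of 4 (-1.21), with none called. Fast muscle fibre genes were higher in 7 of 7 (median 0.51), adipocyte genes in 5 of 5 (1.15) and mast cell genes in 3 of 4 (0.068), again with none called. The 1 B cell gene and the 2 lymph node stroma genes tested were lower. Summed T cell levels were 8.62 to 16.8 CPM in NC and 3.69 to 5.33 in MPS 10 and 11, and the 11 neutrophil genes summed to 6.78 to 10.8 CPM against 4.49 to 5.01. With MPS 14 in the fit the 5 T cell genes were all higher (median 4.97). The part of any of these cells in the marker values was not tested.

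In TZG against NC without MPS 14, no gene of the phagocyte, complement, CSF-1, lysosome or haem lists passed, and their medians were -0.07, -0.18, 0.19, -0.06 and 0.66. Hmox1 had 9.53, 2.70 and 64.4 CPM in TZG 26, 27 and 43, against 5.79 to 12.9 in NC, and stood at 2.31 ± 0.83 (SE; edgeR adjusted p = 0.175). The high value belongs to TZG 43, the library that was also highest of the 9 for Cd163. In TZG against MPS without MPS 14, 16 of 17 phagocyte receptor genes and 14 of 16 complement genes were higher (medians 1.22 and 0.88), again with none called. With all libraries the direction turned, with 4 of 17 and 6 of 16 higher (medians -0.78 and -0.27).

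Genes other than the markers were ranked by how closely their values followed the mean of the 10 markers, as the root mean square difference of centred log2 normalised CPM. Over the 9 libraries without MPS 14 the nearest of 11225 genes were Tyrobp (0.148), Syk (0.190), Anpep (0.201), Ccl6 (0.212), Igsf6 (0.221), Tnfaip8l2 (0.236), Folr2 (0.245) and C1qc (0.266), where the median gene was at 0.919. Among the markers Cd68 was nearest their mean at 0.256 and Msr1 (0.613) and C1qa (0.549) were farthest. Over all 10 libraries Tnfaip8l2, Syk, Aldh1a3, Fcer1g, C1qc, Tyrobp, Ccl24 and Alcam were nearest, at 0.230 to 0.368 with a median gene at 1.07, and Lyz2 (1.05) and Cd163 (0.962) were the farthest markers.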

How the data were processed

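Messenger RNA libraries from rat muscle (4 NC, 3 MPS, 3 TZG) were analysed from 1 deposited table. Per the file headers, the authors deposited counts per gene and sample, FPKM, and log2 fold changes with p-values and q-values for their comparisons. Tools named in the submitters' processing notes, with no role given, are edgeR 3.30.3, StringTie 1.3.3b, HISAT2 and fastp; the genome build and the counting of shared reads and strands are not given in the sources used here. The authors' FPKM values served only to compare levels between genes.

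The counts were tested in R 4.3.3 with edgeR 4.0.16 (filterByExpr, TMM, glmQLFit and glmQLFTest, two-sided, Benjamini-Hochberg adjustment over all genes tested, threshold 0.05), in 1 fit of 3 groups with all 10 libraries and in 1 of the 9 without MPS 14. CPM use the library total. The SE of an edgeR log2 fold change was derived from its test, as its absolute size over the square root of the quasi-likelihood F statistic. The pseudocount in the likeness measure was 0.5. The fits were tested on simulated data with 200 changed genes. Alternatives were DESeq2 1.42.0, RLE factors, library totals, no filter, limma-voom (limma 3.58.1), a strict filter (mean CPM of 5 or more), a fit of the compared groups only, leaving out each library and, added after the data were seen, a robust spread. Exact 95% binomial intervals cover counting error only. Figures were drawn with matplotlib 3.10.9 in Python 3.11.15.

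The markers, the other lists and the tests were chosen with earlier results of these data known. The text names all 10 markers, up to 4 genes with the smallest p of each list spoken of, the genes C1qc, Csf1, Il34, Spi1, Tyrobp, Fcer1g, Ctss, Ptprc and Hmox1, and the 8 genes most like the markers; others are named as chosen after their values were seen. Genes named for MPS 14 and for dendritic and mast cells were chosen that way. List names were matched to the table's gene names, and Cd36, Timd4, Itgam, Ccr2, Mpeg1, Chil3, Mgl2, Cd79a, Pecam1 and Atp2a1 were not matched.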

Additional observations from a re-analysis of the deposited data

How the results depend on the processing

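All values are log2 fold changes or counts of genes called. With all 10 libraries, DESeq2 called 205 genes in MPS against NC, 55 in TZG against NC and 3 in TZG against MPS, and a fit of the 2 compared groups called 3 in TZG against NC. Leaving out 1 library gave 0 to 326 and 0 to 1 genes in MPS against NC and TZG against MPS, the upper values without MPS 14. Without MPS 14, MPS against NC had 1100 genes with DESeq2, 46 with library totals and 1181 with 2 groups only, and 1 to 85 when a further library was left out; 6 markers were called with DESeq2 and 6 with 2 groups only. TZG against NC had 857 genes with DESeq2, 12 with library totals, 57 with the strict filter, 11 with the robust spread, 3 with 2 groups only, and 0 to 239 genes and 0 to 1 marker when a library was left out. TZG against MPS had 14 genes with DESeq2, 0 with limma-voom, 0 with 2 groups only, and 0 to 2 when a library was left out. Of the single-marker values, 780 kept direction and call, 13 gained a call and 58 changed direction. The cause of these changes was not tested. With limma-voom and all libraries, MPS against NC turned to -0.39 for Cd68, -0.73 for Mrc1 and -0.45 for Csf1r, and TZG against NC to -0.12 for Cd163 and -0.45 for Adgre1 (-0.13 and -0.46 without MPS 14). With library totals, C1qa and C1qb turned to 0.12 and 0.27 in MPS against NC, Cd163, Adgre1 and C1qa to -0.022, -0.25 and -0.23 in TZG against NC (-0.022, -0.25 and -0.23 without MPS 14), and Fcgr1a, Msr1, Adgre1 and C1qa to -0.71, -0.56, -0.25 and -0.35 in TZG against MPS. Leaving out each library in turn, MPS against NC ran from -0.55 to 0.21 for C1qa, -1.62 to 0.18 for C1qb, -1.88 to 0.77 for Cd68, -1.88 to 1.52 for Csf1r, -1.67 to 3.64 for Lyz2, -1.87 to 0.59 for Mrc1 and -1.62 to 1.35 for Msr1. TZG against MPS ran from -0.65 to 2.33 for Adgre1, -0.88 to 0.99 for C1qb, -1.46 to 1.67 for Cd68, -2.98 to 1.28 for Csf1r, -0.47 to 2.24 for Fcgr1a, -3.98 to 1.34 for Lyz2, -1.53 to 1.299 for Mrc1 and -1.35 to 3.09 for Msr1, and without MPS 14 from -0.13 to 1.74 for Csf1r. TZG against NC ran from -1.17 to 0.79 for Adgre1, -0.087 to 0.71 for C1qa, -0.83 to 1.03 for Cd163, -1.20 to 0.28 for Cd68, -1.02 to 0.26 for Fcgr1a and -0.49 to 1.92 for Msr1. Without MPS 14 it ran from -1.18 to 0.81 for Adgre1, -0.10 to 0.72 for C1qa, -0.84 to 1.05 for Cd163, -1.21 to 0.29 for Cd68, -1.03 to 0.27 for Fcgr1a, -0.76 to 0.0014 for Lyz2 and -0.49 to 1.94 for Msr1. Where a group is left with 1 library, that library is assumed to vary like the other groups. With 2 MPS libraries, both high in slow fibre genes, and few Msr1 reads, small changes were not detectable. No paired analysis was possible because the groups share no title numbers.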
